A study of Mus musculus with 22 samples.

Results

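Of the 17931 gene symbols counted in RNA from whole mouse testes, 10 were taken as genes of peritubular myoid and other smooth muscle cells: the actins *Acta2* and *Actg2*, the myosin genes *Myh11* and *Myl9*, the kinase gene *Mylk*, the thin filament genes *Tpm2*, *Cnn1*, *Tagln* and *Lmod1*, and the intermediate filament gene *Des*. They were taken by a list of names, and *Actg2* was set against the other 9. The libraries came from 3 WT males, which were verified fertile breeders, and 3 age-matched MLX KO littermates, all 7 months old. No treatment of these males is described. MLX is a bHLHLZ transcription factor that binds DNA with MondoA, ChREBP or proteins of the MXD family. MLX KO males carry a constitutive deletion of exons 3 to 6 of *Mlx*, which encode the bHLHLZ domain, in every tissue. The allele was made in 129S4 embryonic stem cells and deleted with a Meox2-Cre allele that was later crossed out. Independent lines were made from separate stem cell clones, and which of them the sequenced males came from is not given in the sources used here.

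Peritubular myoid cells are flat, contractile cells that surround each seminiferous tubule, and with the basement membrane they form its wall. Their contractions move fluid and released sperm along the tubule, and they also send signals to Sertoli cells and spermatogonial stem cells. Smooth muscle contracts when calcium and calmodulin activate myosin light chain kinase (*Mylk*), which phosphorylates the regulatory light chain (*Myl9*) of smooth muscle myosin (*Myh11*), so that myosin pulls on filaments of smooth muscle actin. In the testis the same proteins are made by smooth muscle of arteries and by pericytes, so these genes do not separate the tubule wall from the vessels. In mice, the smooth muscle gamma actin *Actg2* is also known to be expressed in male germ cells after meiosis.

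The libraries held between 16674678 and 19742726 counts each, and all 10 genes passed the filter on low counts, as did 14640 symbols in all. *Mlx* had 128, 96 and 98 counts in the WT libraries and 94, 109 and 102 in the KO libraries (log2 fold change, LFC, of -0.18, adjusted p = 0.326). The deletion leaves other exons of *Mlx* in place, and their part in this count per gene was not examined. The count therefore does not check the labels, and each direction is that of libraries labelled KO against libraries labelled WT. Values are CPM, counts scaled to library sizes that were adjusted by TMM, with SD over 3 libraries. LFC values and their standard errors (SE) come from edgeR's quasi-likelihood test over all 14640 genes, with Benjamini-Hochberg adjustment and a threshold of 0.05.

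Many smooth muscle genes carry CArG boxes near their start, the sites at which serum response factor (SRF) binds and, with myocardin (*Myocd*) or the related factors MKL1 and MKL2, switches them on. RefSeq promoter windows (GRCm38.p6, 250 bases before to 50 after a start site) were read for 7 of the 10 genes, all but *Actg2*, *Myh11* and *Tagln*. The window of *Mylk*, chr16:34784700-34784999, lies inside the gene, downstream of its first annotated base at 34745199. The CArG box, CC, then 6 bases that are each A or T, then GG, reads the same way on both strands. It occurred in 1 of the 7 windows, that of *Myl9*, and in 1.63% of all 32851 windows. A CArG-like form with 1 of the 6 inner bases C or G occurred in 2 of the 7, those of *Acta2* and *Myl9*, and in 8.50% of all windows. The 4 matches are shown because they are the sequences in these windows that can be set beside the changes of their genes. Each line gives 30 bases on the gene's strand, with the match in capitals and named by how many bases upstream of the start it begins.
*Acta2* at 84, chr19:34255438-34255467 (-): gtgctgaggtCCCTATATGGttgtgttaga
*Acta2* at 34, chr19:34255388-34255417 (-): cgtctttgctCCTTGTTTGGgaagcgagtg
*Myl9* at 161, chr2:156775293-156775322 (+): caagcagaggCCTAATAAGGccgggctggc
*Myl9* at 99, chr2:156775355-156775384 (+): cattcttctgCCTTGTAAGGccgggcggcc
Both *Acta2* matches have 1 C or G inside the box, and both lie in the first exon of a longer annotated transcript that starts upstream of the start used here. Of the *Myl9* matches, the one at 161 is a CArG box without a C or G inside and the one at 99 has 1. The motif CACGTG, an E-box that MLX and its partners can bind, was in 0 of the 7 windows and 7.15% of all windows. TGACGTCA, the full site of CREM and CREB factors, was in 0 of 7 and 1.79%, and TATAAA on either strand was in 0 of 7 and 13.6%. A match or its absence describes these letters in these windows and no binding.

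In MLX KO testes, 8 of the 10 genes were higher and 1, *Actg2*, was lower than in WT. *Cnn1* did not pass the test. Of all genes tested, 45.4% were called in either direction, 24.8% as higher and 20.6% as lower. The 9 genes other than *Actg2* had a median LFC of 0.56, from 0.33 to 0.74, whereas the median of all genes tested was 0.03. In each of these 9 genes every KO library lay above every WT library, a pattern that 30.3% of all genes tested showed, and the KO male was higher in 3 of 3 littermate pairs. CPM are shares of a library. In whole tissue, more cells of a type, more RNA per cell and less RNA from other cells cannot be told apart.

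**Figure D1:**
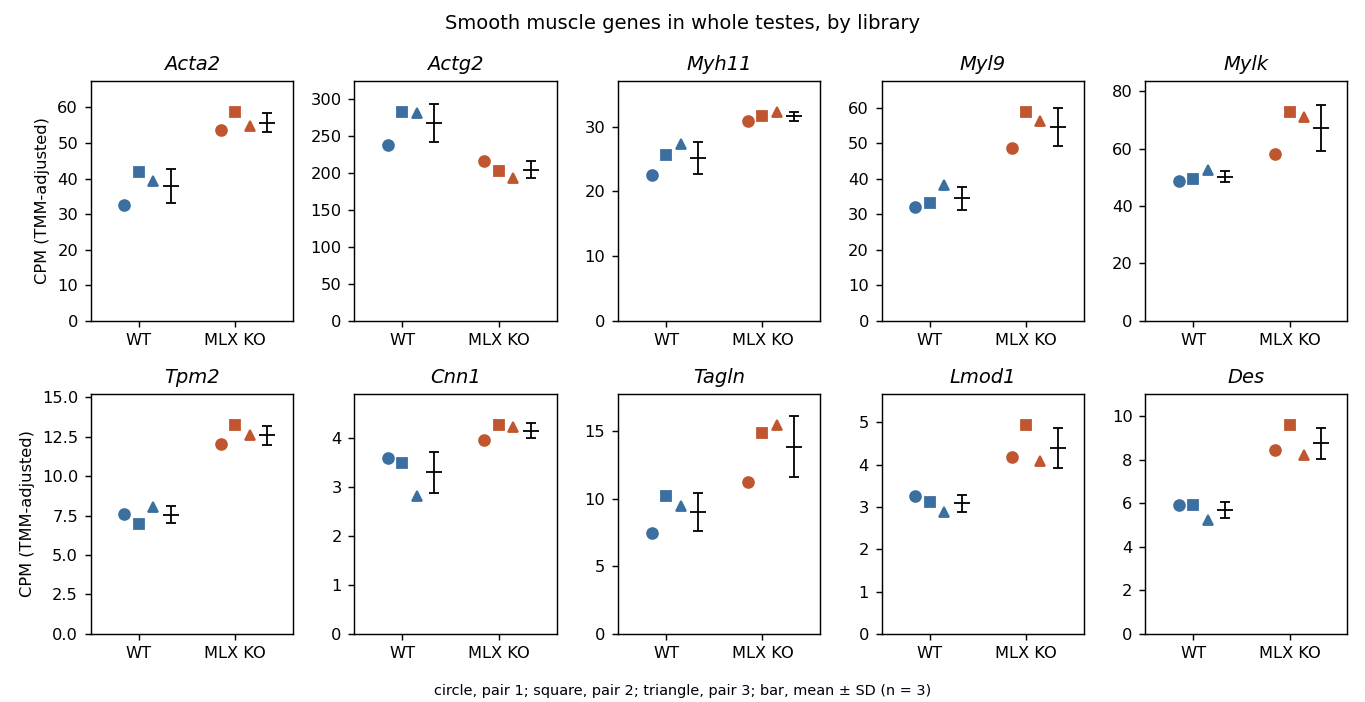
CPM (TMM-adjusted, linear axes from 0) of each of the 10 genes in the 3 WT (blue) and 3 MLX KO (red) libraries, with the littermate pair as the symbol and the mean ± SD as a bar. In 9 panels the KO points lie above the WT points, and in the panel of *Actg2*, with 194 to 217 CPM in KO and 238 to 282 in WT, they lie below.

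*Acta2* and *Actg2* encode the actins of smooth muscle, and they moved in opposite directions. *Acta2*, the smooth muscle alpha actin used most often to stain peritubular myoid cells, lies on mm10 chromosome 19 from 34240336 to 34255585 on the minus strand. It had 618, 659 and 699 counts in the WT libraries and 1038, 1060 and 1037 in the KO libraries. That is 38.0 ± 4.83 CPM in WT and 55.7 ± 2.64 CPM in MLX KO testes, with the lowest KO library above the highest WT library. The LFC was 0.56 (SE 0.09, adjusted p = 4.33e-04), a 1.47-fold increase. *Fas*, a death receptor gene on the opposite strand, adjoins *Acta2* with 35.1 kb and no protein-coding gene between them, and it had 6, 8 and 7 counts in the WT libraries and 33, 29 and 29 in the KO libraries (LFC 1.99, SE 0.29, adjusted p = 3.41e-04).

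*Actg2* lies on chromosome 6 from 83512909 to 83536251 on the minus strand. It had 4512, 4440 and 5000 counts in the WT libraries and 4203, 3664 and 3658 in the KO libraries, the most of the 10 genes in every library. Its level was 267 ± 25.6 CPM in WT and 204 ± 11.7 CPM in MLX KO testes. All KO libraries lay below all WT libraries, as in 25.9% of all genes tested, and the KO male was lower in 3 of 3 pairs. The LFC of -0.39 (SE 0.07, adjusted p = 0.00126) was the only decrease among the 10, and it was smallest in the pair numbered 1 (-0.13, against -0.48 and -0.54 in the others). It passed the threshold under all 15 alternative settings, with LFC values from -0.51 to -0.25.

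*Myh11*, *Myl9* and *Mylk*, the myosin motor, its light chain and the kinase that acts on it, rose. *Myh11*, the smooth muscle myosin heavy chain, lies on chromosome 16 from 14194527 to 14292188 on the minus strand. It had 428, 403 and 485 counts in the WT libraries and 598, 573 and 609 in the KO libraries. Its level was 25.2 ± 2.42 CPM in WT and 31.6 ± 0.702 CPM in MLX KO testes (LFC 0.33, SE 0.08, adjusted p = 0.00613). Of the 8 increases called this was the smallest, and its KO libraries varied little among themselves.

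*Myl9* lies on chromosome 2 from 156775408 to 156781657 on the plus strand. It had 608, 523 and 677 counts in the WT libraries and 942, 1062 and 1065 in the KO libraries, or 34.5 ± 3.24 CPM and 54.6 ± 5.32 CPM. The LFC was 0.66 (SE 0.09, adjusted p = 1.62e-04). *Mylk*, which encodes the smooth muscle form of the kinase and from other start sites also a long form made by many cells, lies on chromosome 16 from 34745199 to 35002436 on the plus strand. It had 926, 774 and 929 counts in the WT libraries and 1125, 1313 and 1339 in the KO libraries, or 50.1 ± 1.95 CPM and 67.2 ± 7.98 CPM (LFC 0.42, SE 0.08, adjusted p = 0.00159). The forms of *Mylk* were not counted apart, and 4.87% of its exon bases overlap the antisense gene E130310I04Rik, which has no row in the table.

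Of the 4 thin filament genes, 3 passed the test. *Tpm2*, the beta tropomyosin that lies along actin filaments, is on chromosome 4 from 43513726 to 43523583 on the minus strand. It had 144, 110 and 143 counts in the WT libraries and 233, 239 and 238 in the KO libraries, or 7.55 ± 0.536 CPM and 12.6 ± 0.602 CPM. Its LFC of 0.74 (SE 0.10, adjusted p = 2.60e-04) was the largest of the 10, with a gap between the groups several times the spread within them.

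*Tagln* encodes transgelin (SM22), an actin-binding protein of differentiated smooth muscle, on chromosome 9 from 45929628 to 45936058 on the minus strand. It had 141, 160 and 167 counts in the WT libraries and 218, 269 and 291 in the KO libraries, or 9.01 ± 1.42 CPM and 13.8 ± 2.27 CPM (LFC 0.62, SE 0.15, adjusted p = 0.00540). Its exons overlap those of genes on the other strand, 62.4% of its exon bases with the antisense gene Gm48529, which has no row in the table, and 5.43% with the protease gene *Pcsk7*. Strand use in counting is not given in the sources used here, so reads there could come from either gene. *Pcsk7* itself had 704 to 845 counts in WT and 833 to 862 in KO libraries (LFC 0.02, adjusted p = 0.803), and under 6 of the alternative settings its LFC was just below 0.

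*Lmod1*, leiomodin, starts new actin filaments in smooth muscle and lies on chromosome 1 from 135324813 to 135368065 on the plus strand. It had 62, 49 and 51 counts in the WT libraries and 81, 89 and 77 in the KO libraries, or 3.09 ± 0.198 CPM and 4.39 ± 0.463 CPM (LFC 0.51, SE 0.16, adjusted p = 0.0226). This call was lost with DESeq2 (adjusted p = 0.114), when DESeq2 took the littermate pair as a block (adjusted p = 0.249), and without WT2 (adjusted p = 0.0592), WT3 (0.0731) or KO2 (0.0929). *Cnn1*, calponin, which binds actin and slows the myosin motor, lies on chromosome 9 from 22099221 to 22109221 on the plus strand. It had 68, 55 and 50 counts in the WT libraries and 77, 77 and 80 in the KO libraries, or 3.30 ± 0.419 CPM and 4.16 ± 0.160 CPM. The groups did not overlap, but the LFC of 0.33 (SE 0.16, adjusted p = 0.113) did not pass the threshold, and it did so only when scaled by library size alone (LFC 0.47, adjusted p = 0.0375).

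*Des* encodes desmin, the intermediate filament protein of muscle and of many pericytes, on chromosome 1 from 75360292 to 75368579 on the plus strand. It had 112, 93 and 93 counts in the WT libraries and 164, 173 and 155 in the KO libraries. Its level was 5.69 ± 0.384 CPM in WT and 8.75 ± 0.726 CPM in MLX KO testes (LFC 0.62, SE 0.12, adjusted p = 0.00193). Every KO library was above every WT library. Its exons overlap the antisense gene Gm15179, which has no row in the table, over 5.86% of their bases.

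**Figure D2:**
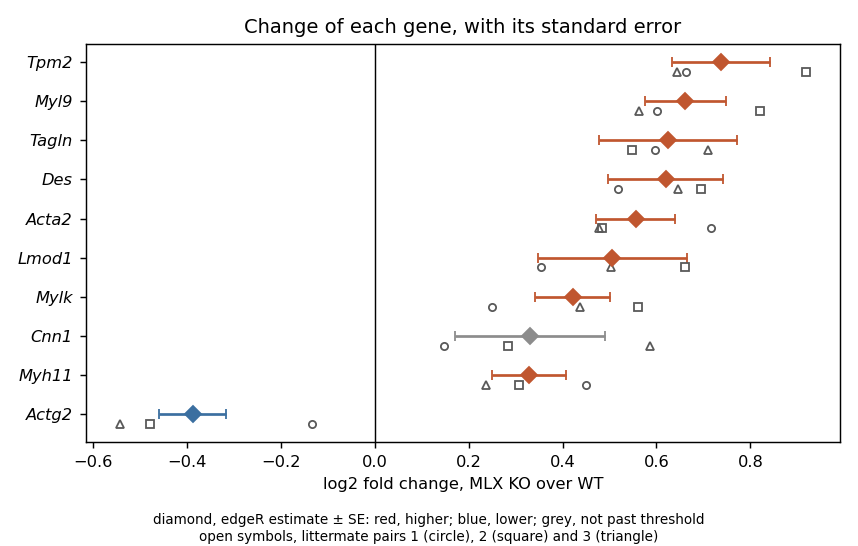
Log2 fold change of MLX KO over WT for each of the 10 genes, as the edgeR estimate ± SE (diamonds; red higher, blue lower, grey not past the threshold) and in each littermate pair (open symbols). The pair values of the 9 genes from *Myh11* to *Tpm2* all lie above 0 and those of *Actg2* all lie below 0.

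Per kb of exon, the level of *Actg2* stood far above the others in both genotypes. In WT it was 172 ± 16.4 CPM per kb, followed by *Myl9* at 29.7 ± 2.79 and *Acta2* at 17.3 ± 2.20. Below them came *Tagln* (4.53) and *Mylk* (4.45), whose ranges overlapped, then *Myh11* (3.31), *Tpm2* (2.60), *Des* (1.52), *Cnn1* (1.21) and *Lmod1* (0.782), whose ranges did not overlap between neighbours. In MLX KO testes *Actg2* was at 131 ± 7.49 CPM per kb, *Myl9* at 47.0 and *Acta2* at 25.4. The order was the same, except that *Tpm2* (4.34) and *Myh11* (4.16) changed places, with overlapping ranges.

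*Actg2* made up 59.2% to 61.1% of the counts of the 10 genes in WT libraries and 42.8% to 48.4% in MLX KO libraries. The summed level of the other 9 was 176 ± 11.3 CPM in WT and 253 ± 19.6 CPM in KO testes. A ratio of 2 genes within a library does not depend on how libraries are scaled. There were 7.30, 6.74 and 7.15 *Actg2* counts for each *Acta2* count in WT libraries and 4.05, 3.46 and 3.53 in KO libraries. These means, 7.06 ± 0.292 and 3.68 ± 0.324, differ by -0.94 on the log2 scale, with no overlap (exact permutation test, two-sided, p = 0.1, the smallest that 3 libraries against 3 allow).

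Against each of the other 9 genes, the *Actg2* ratio was lower in every KO library than in every WT library. The geometric mean of the KO ratios was between 0.458 times (*Tpm2*) and 0.609 times (*Myh11*) that of the WT ratios. These 9 ratios share their numerator and are not separate evidence. On the log2 scale the change of *Actg2* lay 0.94 below the median change of the other 9, and the difference was -0.65, -1.04 and -1.10 in the 3 pairs. No transcript sequence of 50 bases in *Actg2* was shared with another gene, while 0.326% of such stretches in *Acta2* were shared with *Actg1* and its pseudogenes.

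**Figure D3:**
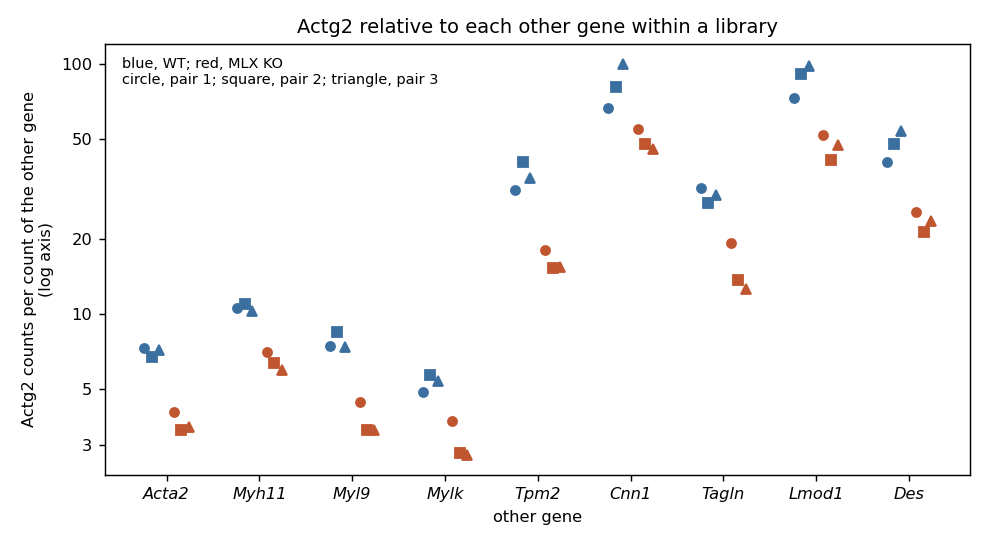
*Actg2* counts per count of each other gene (log axis) in WT (blue) and MLX KO (red) libraries, with the littermate pair as the symbol. For each of the 9 genes the 3 KO ratios lie below the 3 WT ratios, as for *Acta2*, with 3.46 to 4.05 in KO and 6.74 to 7.30 in WT.

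Other genes of smooth muscle contraction were described from a list of 58 without the 10 above, of which 53 had enough counts to be tested. In MLX KO testes, 27 of these (50.9%) were higher and 4 lower, against 24.8% and 20.6% of all genes tested. The list had a median LFC of 0.33. The 4 lower genes were *Mkl1*, *Klf4*, *Palld* and *Pln*, and this count moved with single libraries: it was 0 without WT3, 8 without KO1, 2 without KO2 and 2 without KO3. It was also 2 when DESeq2 took the littermate pair as a block. When scaled by library size alone, which shifts the median of all genes up by 0.14, 32 were higher and 0 lower.

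Among transcription regulators of smooth muscle genes, activators and repressors together, 2 of 8 tested were higher and 2 lower. These shares are near those of all genes tested, 24.8% higher and 20.6% lower. *Myocd*, myocardin, had 8, 5 and 7 counts in the WT libraries and 13, 12 and 5 in the KO libraries, too few to be tested. *Srf* had 862 to 1017 counts in WT and 894 to 938 in KO libraries (LFC -0.14, adjusted p = 0.0789). In CPM all its KO libraries (47.5 to 49.7) lay below all its WT libraries (49.9 to 57.3), as in 25.9% of all genes tested. *Srf* passed the threshold as lower under some alternative settings, such as without WT1 (LFC -0.20, adjusted p = 0.0306). *Mkl1*, an actin-sensing partner of SRF, had an LFC of -0.19 (adjusted p = 0.0170), a call lost without WT3, KO2 or KO3 (adjusted p = 0.0609, 0.0727 and 0.0791) and with the block in DESeq2 (0.0632). *Mkl2* had an LFC of 0.08 (adjusted p = 0.278). *Mef2c*, a transcription factor of muscle and vessels, rose (LFC 0.95, SE 0.15, adjusted p = 5.40e-04), as did *Csrp1*, which encodes a LIM protein of smooth muscle (LFC 0.75, SE 0.09, adjusted p = 6.82e-05). *Klf4*, known as a repressor of smooth muscle genes and named for the count and not by the rule, had an LFC of -0.17 (adjusted p = 0.0177).

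Of 16 contractile and anchoring genes, 9 rose and 1 fell. *Smtn*, smoothelin, went from 7.42 ± 1.09 to 12.99 ± 1.16 CPM (LFC 0.81, adjusted p = 5.09e-04) and *Tpm1*, the alpha tropomyosin, from 19.2 ± 0.766 to 32.3 ± 3.77 CPM (LFC 0.75, adjusted p = 1.14e-04). The other 7 higher genes were *Cald1*, *Myl6*, *Actn1*, *Vcl*, *Flna*, *Tln1* and *Pdlim3*. *Palld*, which encodes an actin crosslinker, fell (LFC -0.31, adjusted p = 0.0185), a call lost without WT3 (0.0769) or KO3 (0.0753) and with the block in DESeq2 (0.123).

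Of 12 genes that set light chain phosphorylation, 5 rose (41.7%, against 24.8% of all genes tested) and the others did not pass the test. Their median LFC was 0.04. The largest increases were those of *Ppp1r14a*, the inhibitor of myosin phosphatase known as CPI-17 (LFC 0.85, adjusted p = 0.00246), and *Rock2*, a kinase that inhibits myosin phosphatase (LFC 0.66, adjusted p = 5.27e-04). Smaller increases were those of *Rhoa* (LFC 0.29, adjusted p = 9.42e-04) and of the phosphatase subunit genes *Ppp1r12a* (LFC 0.21, adjusted p = 0.0161) and *Ppp1cb* (LFC 0.20, adjusted p = 0.0168). Of 9 channel and cGMP genes tested, 5 rose and 1 fell. *Gucy1a3*, a subunit of the nitric oxide receptor, had an LFC of 0.76 (adjusted p = 0.0244), with overlapping groups and a call lost without WT1, WT2, KO2 or KO3 (adjusted p = 0.0910, 0.0788, 0.0728 and 0.1004). *Kcnma1*, a calcium-activated potassium channel, had an LFC of 0.68 (adjusted p = 0.00122). *Pln*, phospholamban, a brake on the calcium pump, fell (LFC -0.34, adjusted p = 0.0114, and 0.0510 without WT3 or 0.0633 with the block in DESeq2).

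Ligands and receptors that set the tone of myoid cells and vessels made up another group of the list. Of 8 such genes tested, 6 rose (75%, against 24.8% of all genes tested) and the others did not pass the test. Their median LFC was 1.24. *Edn1*, endothelin 1, which contracts both, had 24, 16 and 19 counts in the WT libraries and 56, 81 and 64 in the KO libraries (LFC 1.67, SE 0.24, adjusted p = 2.81e-04). *Ednrb*, one of its receptors, had 13, 5 and 10 counts in the WT libraries and 19, 22 and 47 in the KO libraries (LFC 1.54, adjusted p = 0.0121, and 0.0526 without WT2, 0.0589 without KO3 or 0.0532 with the block in DESeq2). *Oxtr*, the oxytocin receptor, singled out after its values were seen, had 170, 135 and 128 counts in the WT libraries and 333, 517 and 427 in the KO libraries (LFC 1.46, SE 0.17, adjusted p = 7.90e-05). *Ednra* (LFC 0.79, adjusted p = 0.0222), *Avpr1a* (LFC 1.29, adjusted p = 0.00315) and *Tbxa2r* (LFC 1.18, adjusted p = 0.0323) also rose. Counts were low for *Avpr1a*, with 17, 8 and 16 in the WT libraries and 32, 35 and 41 in the KO libraries. They were lower still for *Tbxa2r*, with 5, 7 and 10 in the WT libraries and 18, 24 and 12 in the KO libraries.

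Signals that pass between Sertoli, Leydig and myoid cells were described with 11 genes, of which 6 rose and the others did not pass the test, with a median LFC of 0.61. *Dhh*, the hedgehog ligand of Sertoli cells, rose (LFC 0.47, SE 0.09, adjusted p = 0.00142), and so did its receptor *Ptch1*, with 88 to 112 counts in WT and 204 to 214 in KO libraries (LFC 0.99, SE 0.12, adjusted p = 9.82e-05). The PDGF receptors *Pdgfra* (LFC 1.35, adjusted p = 6.60e-06) and *Pdgfrb* (LFC 0.93, adjusted p = 0.00404) rose. *Lif*, a cytokine made by myoid cells, had 6 to 7 counts in WT and 18 to 22 in KO libraries (LFC 1.54, adjusted p = 0.00245, and 0.0902 when DESeq2 took the littermate pair as a block).

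The other actins did not follow *Acta2*. *Actb*, a cytoplasmic actin, had 8742 to 10621 counts in WT and 8243 to 10236 in KO libraries, with overlapping CPM (LFC -0.20, adjusted p = 0.0319), and this call was lost without WT2, WT3, KO2 or KO3 (adjusted p = 0.0810, 0.141, 0.139 and 0.103). *Actg1*, the other cytoplasmic actin, did not pass the test (LFC -0.04, adjusted p = 0.564). When scaled by library size alone, *Actb* was at -0.06 (adjusted p = 0.392) and *Actg1* at 0.10 (adjusted p = 0.0279). The skeletal actin *Acta1* and the cardiac actin *Actc1* had at most 6 counts in any library.

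All 6 actin-like genes of spermatids fell, *Actl7a*, *Actl7b*, *Actl9*, *Actrt1*, *Actrt2* and *Actrt3*, with LFC values from -0.47 to -0.25 and a median of -0.40. *Actrt2* had 9493 to 11535 counts in WT and 7637 to 9306 in KO libraries (LFC -0.47, SE 0.06, adjusted p = 1.42e-04), and *Actrt1* had 478 to 578 and 394 to 433 (LFC -0.47, SE 0.08, adjusted p = 6.33e-04). All 6 were also lower when scaled by library size alone, with a median of -0.26. The LFC of *Actg2*, -0.39, lay within the range of these 6 genes and outside that of the other 9 smooth muscle genes. Those of *Palld* (-0.31) and *Pln* (-0.34), of the smooth muscle pathway list, also lay within the range of the 6. Which cells the *Actg2* counts came from was not tested.

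Markers of spermatocytes and spermatids were set beside these results, and 20.6% of all genes tested were called lower. All 10 markers of elongating spermatids, such as the protamine genes *Prm1* and *Prm2*, were lower in MLX KO testes, with a median LFC of -0.55 and a summed level of 23433 to 24386 CPM in WT and 13873 to 17007 CPM in KO libraries. Of 6 round spermatid markers 6 were lower (median LFC -0.25, summed level 796 to 830 CPM and 690 to 705 CPM), and of 7 spermatocyte markers 5 were lower (median LFC -0.16, summed level 1584 to 1629 CPM and 1390 to 1465 CPM). When scaled by library size alone, 10 of 10, 1 of 6 and 1 of 7 were lower, with medians of -0.41, -0.11 and -0.03. The LFC of *Actg2* lay between the medians of the round and elongating spermatid lists under either scaling. The part of spermatids in the *Actg2* counts was not tested.

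Markers of somatic cells were counted in the same way, and 24.8% of all genes tested were called higher. All 6 Leydig cell markers rose (median LFC 1.28, summed level 707 to 723 CPM in WT and 1640 to 2098 CPM in KO libraries), as did all 6 Sertoli cell markers (median LFC 0.78, 943 to 985 CPM and 1435 to 1749 CPM). Of 6 pericyte and vascular mural markers tested 2, *Abcc9* and *Kcnj8*, rose (median LFC 0.64, 12.4 to 16.3 CPM and 19.2 to 25.4 CPM), while *Rgs5*, *Notch3*, *Cspg4* and *Heyl* did not pass the test. Of 7 endothelial markers 3 rose (median LFC 0.62, 17.4 to 21.5 CPM and 33.2 to 37.2 CPM), and of 6 fibroblast markers 5 rose (median LFC 1.06, 75.3 to 88.6 CPM and 137 to 185 CPM). Of 8 macrophage markers 7 rose and 1, *Aif1*, fell (median LFC 1.21). Their summed level was 435 to 454 CPM in WT and 414 to 446 CPM in KO libraries. Most of that sum was *Aif1* alone, with 366 to 383 CPM in WT and 283 to 324 CPM in KO libraries. The part of these cells in the smooth muscle values was not tested.

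Markers of muscle and epididymal tissue that could be taken along with a testis were also counted. Of 8 skeletal muscle markers, 4 had too few counts, 1, *Myh1*, was lower and 3 did not pass the test, though with library size alone 1 of these was higher. Of 4 markers of epididymis and vas deferens epithelium, *Lcn5*, *Adam7* and *Crisp1* had at most 4 counts in any library, and *Rnase10* was lower in KO testes.

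**Figure D4:**
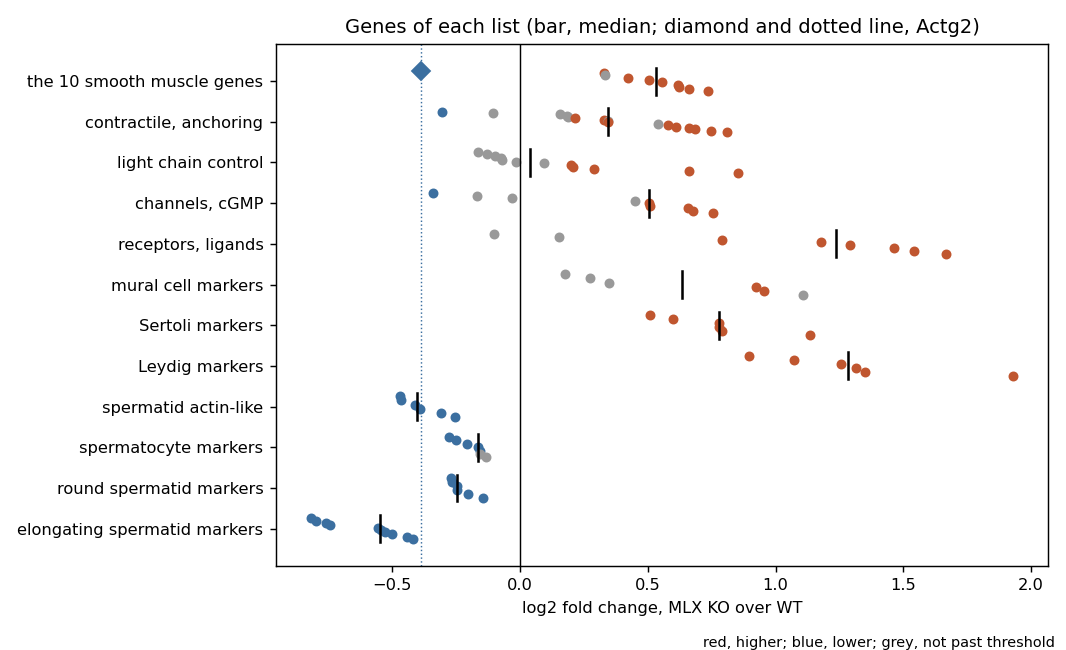
Log2 fold change of MLX KO over WT for each tested gene of 12 lists (points; red higher, blue lower, grey not past the threshold), with the median of each list as a bar and *Actg2* as a diamond and dotted line at -0.39. The 9 smooth muscle genes set against *Actg2* lie right of 0 at 0.33 to 0.74. The tested genes of the smooth muscle pathway list spread to both sides of 0, from -0.34 (*Pln*) to 1.67 (*Edn1*). The spermatid actin-like genes lie around the *Actg2* line at -0.47 to -0.25.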

How the data were processed

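Total RNA of testes from 3 WT and 3 MLX KO males was extracted with Trizol and sequenced with paired-end reads. For these 6 libraries the authors deposited whole-number read counts per gene symbol, not normalized, from reads aligned to mm10 with TopHat. The counting tool, the annotation and the use of strand are not given in the sources used here. The deposited table also holds the authors' own comparison (a mean signal, log2 fold changes, their standard errors, scores, p-values and adjusted p-values), which was not used. The ChIP-Seq samples were not analysed here. Of 17933 rows, 2 repeated rows were dropped.

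Counts were tested with edgeR 4.0.16 in R 4.3.3 (filter with a minimum count of 10, TMM, quasi-likelihood test, genotype as the only term). The 10 genes and the lists were chosen with earlier results of these data known. Besides the 10, genes named were *Mlx*, *Myocd*, *Srf*, *Mkl1*, *Mkl2*, the 2 called genes of largest LFC in each subgroup (and the largest in each direction), *Fas* as a neighbour of *Acta2*, and genes that overlap one of the 10. Another gene that this rule picks is not reported here. Levels per kb used union exon lengths of GENCODE M21. Coordinates and promoters are from RefSeq (GRCm38.p6, the build mm10), and the CArG-like search was added after the search for CArG boxes. Alternatives were DESeq2 1.42.0, scaling by DESeq2 size factors, by library size alone or by the upper quartile, no filter or a filter of 1 CPM in at least 3 libraries, a block for the littermate pair (in edgeR and in DESeq2), and leaving out each library or pair 1.

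Same-numbered males were littermates by the titles and methods. When the mean of its genotype was taken from each library (log2 CPM, prior count 2), littermates correlated across genes at 0.145, 0.0363 and 0.121, and no other WT and KO library at more than 0.0330. No libraries were duplicates: counts within a genotype differed by more than sampling noise, with a chi-square of 2.73 to 8.26 times its degrees of freedom. The code was tested on simulated data.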

Additional observations from a re-analysis of the deposited data

How the results depend on the processing

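Over the 15 alternative settings *Actg2* stayed lower and past the threshold, with LFC values from -0.51 without pair 1 to -0.25 with library size alone, and adjusted p-values up to 0.00921. From 7 to 9 of the 10 genes were higher and 1 was lower. The 7 came with DESeq2, DESeq2 with the pair as a replicate block, and without WT2, WT3 or KO2, and the 9 with library size alone. When edgeR took the pair as a block, the *Actg2* LFC was -0.38, 8 genes were higher and 1 lower. In DESeq2 the block, besides *Lmod1*, ended the calls of *Lif*, *Ednrb*, *Mkl1*, *Palld*, *Pln*, *Mylk3* and *Tmod4*. The *Actg2* to *Acta2* ratio differed by -1.02 to -0.90 on the log2 scale over its alternatives, and with signs flipped within pairs the exact p was 0.25, the smallest possible. Of the other smooth muscle pathway genes, 20 to 32 were higher. The count of lower genes, 4, was 0 with library size alone, 2 with the DESeq2 block, 10 without pair 1 and from 0 to 8 when each library was left out. The cause was not tested. Library size alone called 5343 genes higher and 1268 lower (80.8% higher), against 3634 and 3015 (54.7%) with TMM. It also ended the calls of *Mkl1*, *Palld*, *Pln*, *Actb*, *Mylk3* and *Tmod4*, and brought *Mkl2* past the threshold. *Pcsk7*, at 0.02, was at -0.0036 with DESeq2, -0.0035 with its size factors, -0.0026 with its block and -0.0179 without pair 1, and from -0.0305 without WT1 to 0.0705 without WT3 when each library was left out (-0.0050 without KO2). Of 493 comparisons of the 33 other genes that the naming rule picks with their alternatives, 438 kept direction and side of the threshold, 45 lost the call, 4 gained it and 6 changed sign, all for *Pcsk7*. With a mean of 67.8 and 68.2 counts per library, *Cnn1* and *Lmod1* each have a counting error of about 12.1% per library, against 1.53% for *Actg2*.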

Other observations

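Genes whose proteins do in other cells what the smooth muscle proteins do in muscle were set beside them. In MLX KO testes, 9 of the 16 such genes tested were higher and 4 lower, against 24.8% and 20.6% of all genes tested. Their median LFC was 0.37. *Cnn3*, the calponin of many other cells, had 120, 97 and 114 counts in the WT libraries and 456, 564 and 565 in the KO libraries (LFC 2.16, SE 0.12, adjusted p = 8.83e-07 from edgeR), while *Cnn1* of smooth muscle had an LFC of 0.33 and did not pass the test. *Tpm4*, a tropomyosin of other cells, had 197 to 223 counts in WT and 428 to 601 in KO libraries (LFC 1.16, adjusted p = 6.03e-05). *Myh9*, a nonmuscle myosin, rose (LFC 0.91, adjusted p = 5.03e-04), and so did the intermediate filament gene *Vim* (LFC 1.05, SE 0.06, adjusted p = 1.20e-06). The LFC values of *Cnn3*, *Tpm4*, *Myh9* and *Vim* each lay above that of *Tpm2*, the largest of the 10 smooth muscle genes, though these differences between genes were not tested. *Mylk3*, a cardiac light chain kinase, had 24 to 35 counts in WT and 13 to 25 in KO libraries (LFC -0.75, adjusted p = 0.0387), a call that any library left out except KO1 ended (adjusted p from 0.0589 to 0.151), as did the littermate block in DESeq2 (0.235). *Tmod4*, a tropomodulin, had an LFC of -0.70 (adjusted p = 0.0221, and 0.0991 without WT3, 0.0833 without KO3 or 0.190 with that block). *Myh10* and *Tmod1* were the other 2 lower genes, and with library size alone 0 of the 4 were. Of 4 adipocyte markers, 1 was higher and 1, *Adipoq*, lower.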
